A study of Rattus norvegicus with 30 samples.

Results

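Immediate early genes are switched on within minutes of a stimulus from factors already present in the cell, without new protein synthesis. Members of this class were chosen by symbol: Fos, Fosb and Fosl2, Jun, Junb and Jund, Egr1 and Egr2, Atf3 and Ier2, which make 10 of the 30562 rows in the gene table. All 10 passed the filter on low counts and were among the 16171 rows tested. Each symbol matched 1 row.

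The RNA came from rat lung cells collected with CD31 microbeads 3 weeks after a sham operation or a Glenn shunt, the operation that sends blood of the superior vena cava straight into a pulmonary artery. Every rat was described as wild-type, and no strain, age or sex was given in the labels. The animals of each operation ate a control diet, a vitamin A deficient diet or a vitamin A excess diet, which gave 6 groups of 5 libraries. The groups were sham surgery on control diet, sham on deficient diet, sham on excess diet, Glenn on control diet, Glenn on deficient diet and Glenn on excess diet. All groups shared the microbead sorting, so tissue before sorting was not analysed here, and RNA induced in the animal and RNA induced while cells were prepared cannot be told apart. The labels number the libraries of a group but do not say that each came from its own animal, so the p-values measure the spread between these libraries.

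The proteins of this class are mostly transcription factors. Fos and Jun family proteins pair through leucine zippers to form AP-1, which binds the heptamer TGACTCA, and Jun or ATF proteins also bind the related octamer TGACGTCA. Early growth response proteins bind GC-rich sites through zinc fingers. In endothelium, these genes are known for fast induction by a change in blood flow, by growth factors, by injury and by the enzymatic dissociation of tissue, and the transcripts usually decay within hours.

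Promoters of 7 members were found in the RefSeq table for assembly GRCr8, which gives 250 bases before and 50 after each gene's start; Fos, Jun and Atf3 were not among them. Motifs were counted on both strands in all 33469 promoters of that length. The CArG box, the site of serum response factor, was found in 1.64% of all promoters and in those of Egr1 and Egr2. The octamer TGACGTCA was found in 1.83% of all promoters and in those of Jund and Ier2. Its first 5 bases, TGACG, which lie inside the octamer, were found in 21.2% of all promoters and in 5 of the 7 member promoters (Junb, Jund, Egr1, Egr2 and Ier2). TGACTCA was found in 4.63% of all promoters and in 0 of the 7. The zinc finger sites GCGTGGGCG and GCGGGGGCG were found in 0.544% and 2.73% of all promoters, the former in Jund and the latter in Fosl2. The windows below show the matches upstream of Egr2, which rose after Glenn surgery, of Ier2, which fell, and of Jund, which passed no test, with the CArG box or the octamer in capitals. They lie at chr20:21054482-21054541 (minus strand) for Egr2, chr19:40399273-40399332 (plus strand) for Ier2 and chr16:18769952-18770011 (minus strand) for Jund, 5′ to 3′ along the gene. The Egr2 and Ier2 windows run from 100 to 41 bases before the start, and the Jund window from 240 to 181 bases before it.
Egr2: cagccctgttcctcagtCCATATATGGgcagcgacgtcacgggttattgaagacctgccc
Ier2: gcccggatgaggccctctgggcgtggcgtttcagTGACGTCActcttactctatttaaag
Jund: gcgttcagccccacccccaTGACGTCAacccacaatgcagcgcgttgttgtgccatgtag
The CArG box of Egr2 begins 83 bases before the start, and Egr1 has matches beginning 105 and 83 bases before its own. Both carriers of a CArG box were higher after Glenn surgery, and so were Fosb and Fosl2, whose promoters had no match to it. The carriers of the octamer went different ways: Ier2 was lower and Jund did not pass. Bases farther than 250 before the start were not searched, and a link between motifs and changes was not tested. A match in letters does not show binding.

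Levels below are CPM, counts divided by the library total, scaled by the trimmed mean of M values and set to a common size, and are not corrected for transcript length, so they compare libraries for 1 gene and not genes with each other. Total counts per library ran from 22.03 to 77.65 M, and 16717 to 18275 genes were detected. Every member was well covered, from Fosl2, with 835 to 5085 counts per library, to Jun, with 83263 to 289241. The numbers in the library names fell into 2 ranges, called series A (22 libraries) and series B (8 libraries), and the model carried a term for them. Series B was present only in the deficient diet groups and in the Glenn group on excess diet. RT1-CE16, a major histocompatibility gene, was high in 13 libraries and low in 17, and low in all 5 sham libraries on excess diet.

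After Glenn surgery 6 of the 10 genes were higher (Fos, Fosb, Fosl2, Egr1, Egr2 and Atf3), 2 were lower (Jun and Ier2), and Junb and Jund did not pass the test. That is 8 of 10 called by edgeR's quasi-likelihood test with all diets averaged, at a Benjamini-Hochberg adjusted p under 0.05. The background for a call in either direction was 48.2% of all genes tested, with 23.4% higher and 24.7% lower. Their median log2 change was 0.27, beside −0.01 for all genes tested. The sham and Glenn libraries did not overlap for 2 of the 10, Fos and Fosl2, while 5.83% of all genes had no overlap. The 10 genes together took 1.57% ± 0.145 (SD, n = 15) of all counts after sham surgery, with a range of 1.33% to 1.78%. After Glenn surgery they took 1.76% ± 0.110, with a range of 1.52% to 1.96%, so the shares of the operations overlapped.

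**Figure D1:**
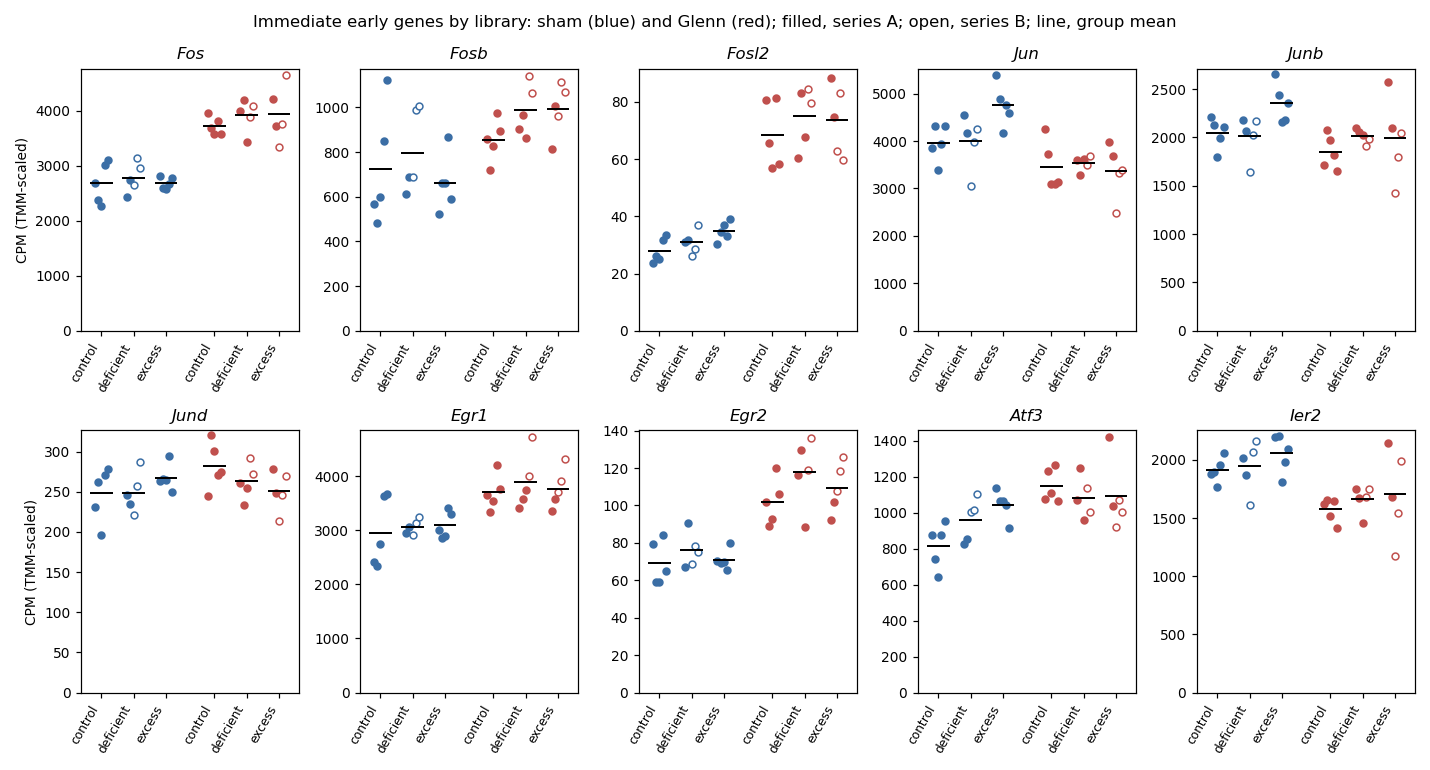
CPM of each of the 10 genes (vertical axes start at 0) in all 30 libraries, by diet, with sham in blue and Glenn in red; filled points are series A, open points series B and lines are group means. For Fos and Fosl2 every red point lies above every blue point, and for Junb and Jund the colours overlap widely.

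Fosl2, which encodes the AP-1 subunit Fra-2, had the largest change of the 10. Under control diet the sham libraries had 23.7, 25.1, 26.1, 31.7 and 33.7 CPM, and the Glenn libraries 56.8, 58.3, 65.5, 80.8 and 81.3 CPM. Under deficient diet the sham libraries had 26.2, 28.7, 30.9, 31.7 and 37.0 CPM, and the Glenn libraries 60.3, 67.7, 79.6, 83.3 and 84.5 CPM. Under excess diet the sham libraries had 30.3, 33.2, 34.4, 37.0 and 39.0 CPM, and the Glenn libraries 59.8, 62.9, 74.7, 83.1 and 88.4 CPM. The highest of the 15 sham libraries, at 39.0 CPM, thus lay under the lowest of the 15 Glenn libraries, at 56.8 CPM. The averaged log2 change was 1.22 (SE 0.08, 95% interval 1.06 to 1.38, edgeR adjusted p = 9.98e-14), a fold of 2.33. The change was 1.29, 1.28 and 1.10 under control, deficient and excess diet (edgeR adjusted p = 1.13e-08, 1.57e-08 and 9.87e-07).

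Fos, which encodes the c-Fos subunit and cannot form AP-1 without a Jun partner, rose less in fold. The sham libraries had 2273, 2378, 2679, 3012 and 3100 CPM under control diet, and the Glenn libraries 3576, 3579, 3686, 3810 and 3967 CPM. Under deficient diet the sham libraries had 2424, 2643, 2742, 2965 and 3146 CPM, and the Glenn libraries 3428, 3890, 3991, 4092 and 4198 CPM. Under excess diet the sham libraries had 2568, 2596, 2674, 2777 and 2816 CPM, and the Glenn libraries 3340, 3722, 3755, 4213 and 4647 CPM. All 15 Glenn libraries were above all 15 sham libraries, as for Fosl2. With diets averaged, the log2 change was 0.50 (SE 0.05, 95% interval 0.39 to 0.61, edgeR adjusted p = 9.52e-09), a fold of 1.41. It was 0.47, 0.51 and 0.51 under the control, deficient and excess diets (edgeR adjusted p = 3e-04, 0.00014 and 0.000445). In series B alone, an alternative chosen after the data were seen, the change under deficient diet was 0.45 and did not pass (edgeR adjusted p = 0.0716).

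Fosb, whose product is the FosB subunit and whose shorter ΔFosB isoform cannot be separated in gene counts, rose in the averaged comparison with wide overlap. Sham libraries ran from 481 to 1121 CPM with a median of 662, and Glenn libraries from 721 to 1141 CPM with a median of 962. Only 1 Glenn library exceeded every sham library, and the sham libraries under control diet alone spread from 481 to 1121 CPM. The log2 change over all diets was 0.34 (SE 0.10, 95% interval 0.14 to 0.53, edgeR adjusted p = 0.00429). Per diet it was 0.24, 0.38 and 0.40, and none passed (edgeR adjusted p = 0.315, 0.0907 and 0.12). The averaged call was kept in 30 of 30 fits without 1 library and in 10 of 10 other settings. The per diet outcomes depended on single libraries and on the model. Leaving out 1 library moved the change under control diet between 0.12 (without the second sham library, its lowest at 481 CPM, edgeR adjusted p = 0.643) and 0.45 (without the fifth, its highest at 1121 CPM, edgeR adjusted p = 0.0224), and under excess diet between 0.30 (without the second Glenn library) and 0.51 (without the fourth sham library, edgeR adjusted p = 0.0447). In the other settings the change passed in 2 of 11 under control, 3 of 12 under deficient and 4 of 11 under excess diet. Their values were 0.19 to 0.62, 0.30 to 0.49 and 0.36 to 0.63. Among these, the fit with RT1-CE16 and sex terms in place of the series passed under each diet. It gave 0.36, 0.41 and 0.41 (edgeR adjusted p = 0.0458, 0.0199 and 0.0311). With the RT1-CE16 term alone the change passed under deficient diet only (0.39, edgeR adjusted p = 0.0363). RefSeq GRCr8 places a long non-coding gene, LOC103691049, over part of Fosb, and the sources used here do not state whether the counting used strand, so reads of the 2 genes may not be separated.

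The Jun family did not follow the Fos family. Jun, the partner that can form AP-1 as a homodimer or with Fos proteins, had 3047 to 5382 CPM in the sham libraries (median 4255) and 2474 to 4243 CPM in the Glenn libraries (median 3497). The groups overlapped widely, and 1 Glenn library lay below all sham libraries. Averaged over diets, the log2 change was −0.27 (SE 0.06, 95% interval −0.40 to −0.14, edgeR adjusted p = 0.00104). By diet the changes were −0.19 under control, −0.20 under deficient and −0.41 under excess diet, of which the last passed (edgeR adjusted p = 0.212, 0.183 and 0.0158). Under excess diet the sham libraries had 4171, 4592, 4762, 4896 and 5382 CPM, and the Glenn libraries 2474, 3317, 3398, 3684 and 3969 CPM. Those 5 sham libraries stood above the 5 Glenn libraries without overlap, and their mean of 4761 ± 442 CPM (SD, n = 5) was the highest of the 6 groups. The call under excess diet was lost in series A alone (−0.30, edgeR adjusted p = 0.142), in the RT1-CE16-low libraries alone (−0.30, edgeR adjusted p = 0.146) and with only those groups fitted (−0.31, edgeR adjusted p = 0.189).

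Junb, which forms AP-1 dimers that are often weaker activators than those of Jun, ran from 1638 to 2652 CPM in sham and from 1430 to 2577 CPM in Glenn libraries. The averaged log2 change of −0.11 did not pass (SE 0.06, 95% interval −0.23 to 0.01, edgeR adjusted p = 0.131). Without the first Glenn library on excess diet it was −0.14 and passed (edgeR adjusted p = 0.0365). Jund, the Jun family member usually expressed without a stimulus, ran from 196 to 294 CPM in sham and from 214 to 320 CPM in Glenn libraries, and its change of 0.05 did not pass (95% interval −0.06 to 0.16, edgeR adjusted p = 0.451). For both genes the sham and Glenn libraries covered nearly the same range. Estimated counts of Junb were not whole in any of the 30 libraries, so reads shared with another locus may enter its level. The same may hold for Egr2, Fos, Fosb and Fosl2, whose counts were not whole in 11, 10, 8 and 3 libraries. The per diet changes were −0.15, −0.04 and −0.13 for Junb and 0.19, 0.09 and −0.12 for Jund, none of which passed.

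**Figure D2:**
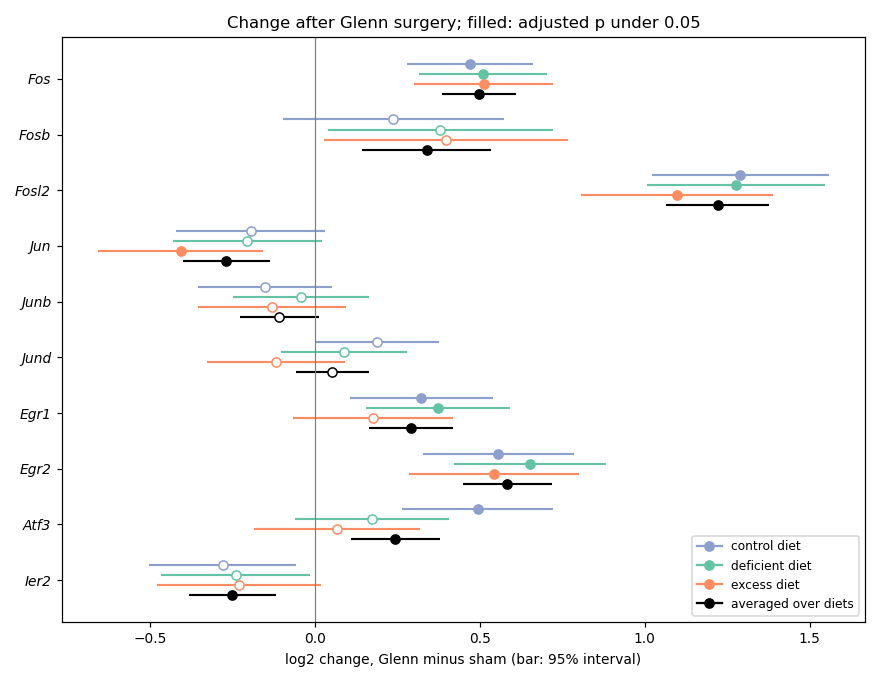
Log2 change, Glenn minus sham (horizontal axis), for each gene under control, deficient and excess diet and averaged over diets, with 95% intervals; filled points have an edgeR adjusted p under 0.05. Fosl2 stands at 1.22 for the average, Egr2 and Fos follow at 0.58 and 0.50, and Jun and Ier2 lie on the negative side at −0.27 and −0.25.

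Because Fos went up and Jun down, the counts of Fos were divided by those of Jun within each library, a measure chosen after both sets of values were seen and given without a test. The ratio ran from 0.523 to 0.867 in the sham libraries (mean 0.652 ± 0.105, SD, n = 15) and from 0.935 to 1.37 in the Glenn libraries (mean 1.13 ± 0.133, n = 15). No Glenn library fell inside the sham range. Fos alone already had no overlap and Jun was lower after Glenn surgery, so this separation follows largely from values given above and is no separate result. Group means were 0.681, 0.709 and 0.567 after sham surgery under control, deficient and excess diet, and 1.09, 1.11 and 1.18 after Glenn surgery. The ratio is free of library scaling, but transcript lengths differ, so its distance from 1 says nothing of which transcript is more numerous.

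**Figure D3:**
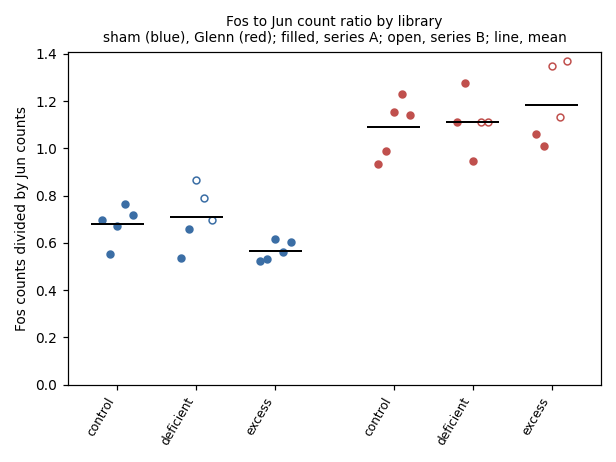
Counts of Fos divided by counts of Jun (vertical axis from 0) in each of the 30 libraries, by diet, sham in blue and Glenn in red; filled points are series A, open points series B, lines are group means. All red points, from 0.935 up, lie above all blue points, which end at 0.867. Fos alone already had no overlap.

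Both early growth response genes rose. Egr2, a zinc finger factor known best from hindbrain and Schwann cells and from lymphocytes, had 59.1, 59.1, 65.1, 79.2 and 84.4 CPM in the sham and 89.2, 92.6, 101.9, 106.2 and 120.0 CPM in the Glenn libraries under control diet. Under deficient diet the sham libraries had 67.3, 68.7, 75.0, 78.5 and 90.8 CPM, and the Glenn libraries 88.6, 116.5, 119.1, 129.5 and 136.2 CPM. Under excess diet the sham libraries had 65.7, 69.4, 70.0, 70.1 and 80.0 CPM, and the Glenn libraries 92.5, 101.7, 107.9, 118.3 and 126.1 CPM. Of the 15 Glenn libraries, 13 were above all sham libraries, and within the control and the excess diet the operations did not overlap. The averaged log2 change was 0.58 (SE 0.07, 95% interval 0.45 to 0.72, edgeR adjusted p = 1.79e-08), a fold of 1.498. Per diet it was 0.56, 0.65 and 0.54 (edgeR adjusted p = 0.000368, 5.47e-05 and 0.00186). In the RT1-CE16-low libraries alone, an alternative chosen after the data were seen, the change under control diet was 0.46 and did not pass (edgeR adjusted p = 0.0746).

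Egr1, the flow and injury responsive factor of vessel walls, had 2334 to 3668 CPM after sham surgery (median 3010) and 3333 to 4723 CPM after Glenn surgery (median 3703). The ranges overlapped between 3333 and 3668 CPM, and 8 of the 15 Glenn libraries were above all sham libraries. With diets averaged, the log2 change was 0.29 (SE 0.06, 95% interval 0.16 to 0.42, edgeR adjusted p = 0.000306). Under control and deficient diet it was 0.32 and 0.37 and passed, and under excess diet 0.18 and did not (edgeR adjusted p = 0.0244, 0.00923 and 0.318). The call under control diet was lost without the first sham library (0.26, adjusted p = 0.0822), the second (0.25, adjusted p = 0.0922) or the fourth Glenn library (0.30, adjusted p = 0.052), with limma voom (0.27, adjusted p = 0.0602) and with only those groups fitted (0.33, edgeR adjusted p = 0.106). The call under deficient diet was lost in series A alone (0.26, edgeR adjusted p = 0.329) and in the RT1-CE16-low libraries alone (0.25, edgeR adjusted p = 0.151).

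Atf3, a stress-induced bZIP factor that often represses its targets, rose in the averaged comparison by 0.24 on the log2 scale (SE 0.07, 95% interval 0.11 to 0.38, edgeR adjusted p = 0.00263). Under control diet the sham libraries had 642, 740, 875, 876 and 954 CPM, and the Glenn libraries 1067, 1078, 1109, 1234 and 1265 CPM. These 10 libraries did not overlap, and the change of 0.49 passed (edgeR adjusted p = 0.00132). Under deficient diet the sham libraries had 828 to 1104 CPM and the Glenn libraries 962 to 1248 CPM, and under excess diet 913 to 1139 and 920 to 1418 CPM. There the changes were 0.17 and 0.07 and did not pass (edgeR adjusted p = 0.285 and 0.756). The highest Glenn library on excess diet, replicate 1 at 1418 CPM, set the sign in that group: without it the change was −0.12 (edgeR adjusted p = 0.556). The test of a different response between diets gave an unadjusted p of 0.0342 and an edgeR adjusted p of 0.845, so a difference between diets did not pass. RefSeq GRCr8 places the protein coding gene Garin4 over part of Atf3.

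Ier2, a short nuclear protein that is induced with Fos and Jun, was lower after Glenn surgery. The sham libraries had 1610 to 2201 CPM (median 1983) and the Glenn libraries 1176 to 2145 CPM (median 1658). Of the Glenn libraries 5 lay below all sham libraries, and 2 on excess diet, at 1988 and 2145 CPM, lay among the upper sham values. The log2 change over all diets was −0.25 (SE 0.06, 95% interval −0.38 to −0.12, edgeR adjusted p = 0.00188). Under control diet the sham libraries had 1769, 1878, 1892, 1956 and 2057 CPM, and the Glenn libraries 1415, 1520, 1624, 1650 and 1658 CPM, with no overlap. The changes of −0.28, −0.24 and −0.23 under control, deficient and excess diet did not pass (edgeR adjusted p = 0.0607, 0.11 and 0.187). Under excess diet the change was −0.37 and passed without the first Glenn library (edgeR adjusted p = 0.0383), −0.34 and passed with limma voom (adjusted p = 0.021), and −0.09 in series A alone (edgeR adjusted p = 0.781). Under control diet it passed in 5 of 11 other settings.

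Within single diets, 5 of 10 genes were called under control diet (all higher), 4 under deficient diet (all higher) and 4 under excess diet (3 higher and Jun lower). The backgrounds were 24.9%, 27.4% and 21.9% of all genes tested, split into 11.8%, 13.7% and 11.6% higher and 13.1%, 13.7% and 10.4% lower. Operations did not overlap for 5, 3 and 4 of the 10 genes, beside 17.2%, 19.6% and 16.3% of all genes. Fos, Fosl2 and Egr2 were called under all 3 diets. The test of a surgery response that differs between diets called 0 of 10 genes by edgeR (background 0.00618%), with Atf3 alone at an unadjusted p under 0.05, and 0 by DESeq2 and by limma voom.

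Vitamin A intake did not move these genes past the threshold after either operation. In all 6 diet comparisons 0 of 10 genes were called by edgeR, by DESeq2 and by limma voom. The backgrounds were 0.0%, 0.241% and 0.0124% of all genes for deficient minus control, excess minus control and excess minus deficient after sham surgery, and 0.00618%, 1.47% and 0.0% in the same order after Glenn surgery. The 60 log2 differences ran from −0.20 to 0.35, and their 95% intervals together from −0.47 to 0.58. At an unadjusted p under 0.05 there were 3, all for excess minus control after sham surgery: Atf3 at 0.35 (95% interval 0.13 to 0.58, edgeR adjusted p = 0.19), Fosl2 at 0.31 (edgeR adjusted p = 0.363) and Jun at 0.27 (edgeR adjusted p = 0.356). Mean Atf3 was 817 ± 125 CPM on control diet, 960 ± 117 on deficient diet and 1045 ± 82.0 on excess diet after sham surgery (SD, n = 5 each). Mean Fosl2 in the same order was 28.0 ± 4.38, 30.9 ± 4.03 and 34.8 ± 3.40 CPM. Neighbouring diets in these orders overlapped. All sham libraries on excess diet were RT1-CE16-low, beside 2 of the 5 on control diet. With a term for RT1-CE16 in place of the series, the differences were 0.36 for Atf3, 0.34 for Fosl2 and 0.17 for Jun (edgeR adjusted p = 0.457, 0.619 and 0.86).

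Members also varied between libraries of 1 group. Deviations of log2(CPM + 1) from the group mean were correlated for all 45 pairs over the 15 libraries of each operation, with 90 tests adjusted together and p from 100000 permutations within groups. Series, RT1-CE16 status and sex vary within groups and were not removed, and their part in r was not tested. Sex was read from Ddx3y, which gave 13 male and 17 female libraries. For sham on control diet, Fosb had 481 and 569 CPM in RT1-CE16-low and 599, 851 and 1121 CPM in RT1-CE16-high libraries. For sham on deficient diet the 2 kinds also separated (615 and 687 beside 690, 989 and 1008 CPM). They did so for Glenn on control diet (721, 826 and 857 beside 893 and 975 CPM). Glenn libraries on deficient diet separated too (863, 902 and 968 beside 1065 and 1141 CPM). Only for Glenn on excess diet the 2 kinds overlapped (815 and 1006 CPM beside 962, 1068 and 1112 CPM). Egr1 also separated by RT1-CE16 status in these groups, except for sham on deficient diet, where the 2 kinds overlapped. After sham surgery 43 of 45 coefficients were positive, with a median of 0.35, and 4 pairs passed. These were Jun with Junb (Pearson r = 0.90, Spearman rho = 0.80), Jun with Ier2 (r = 0.83, rho = 0.69), Junb with Ier2 (r = 0.82, rho = 0.68) and Fosb with Egr1 (r = 0.80, rho = 0.69), each at a permutation p adjusted to 0.0306. Their unadjusted permutation p for r were 0.0006, 0.00191, 0.00174 and 0.00211, and for rho 0.00163, 0.01003, 0.01347 and 0.01306. After Glenn surgery 32 of 45 were positive, with a median of 0.25, and 3 pairs passed. These were Fos with Ier2 (r = 0.85, rho = 0.83), Fosb with Egr2 (r = 0.79, rho = 0.81) and Fosb with Egr1 (r = 0.77, rho = 0.83), again at an adjusted permutation p of 0.0306. The sham pairs of Ier2 had r of 0.84 with Junb and 0.72 with Jun after Glenn surgery and did not pass (adjusted permutation p = 0.1023 and 0.1206), and no difference between the operations was tested. For the 3 pairs that passed, the unadjusted permutation p for r were 0.00238, 0.00105 and 0.00238, and for rho 0.00371, 0.00099 and 0.00097. By rank, 1 pair passed after sham (Jun with Junb) and 2 after Glenn surgery (both pairs of Fosb).

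Without the 2 libraries farthest from the median of the first gene of a pair, r was 0.80 for Jun with Junb, 0.69 for Jun with Ier2, 0.68 for Junb with Ier2 and 0.72 for Fosb with Egr1 after sham surgery, and 0.76 for Fos with Ier2, 0.78 for Fosb with Egr1 and 0.83 for Fosb with Egr2 after Glenn surgery. Of the 7 pairs, Fosb with Egr2 alone then passed (20000 permutations, adjusted permutation p = 0.0225), and with 13 libraries left the other 6 did not. For Fosb with Egr1 after Glenn surgery r and its unadjusted permutation p hardly moved (0.00235 beside 0.00238), and the adjusted value went to 0.1057. Fos with Jun did not pass after either operation (r = 0.25 after sham and 0.49 after Glenn surgery, adjusted permutation p = 0.617 and 0.36). Within each library the values of both genes of a pair share its depth and scaling, and the part of this in r was not tested.

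**Figure D4:**
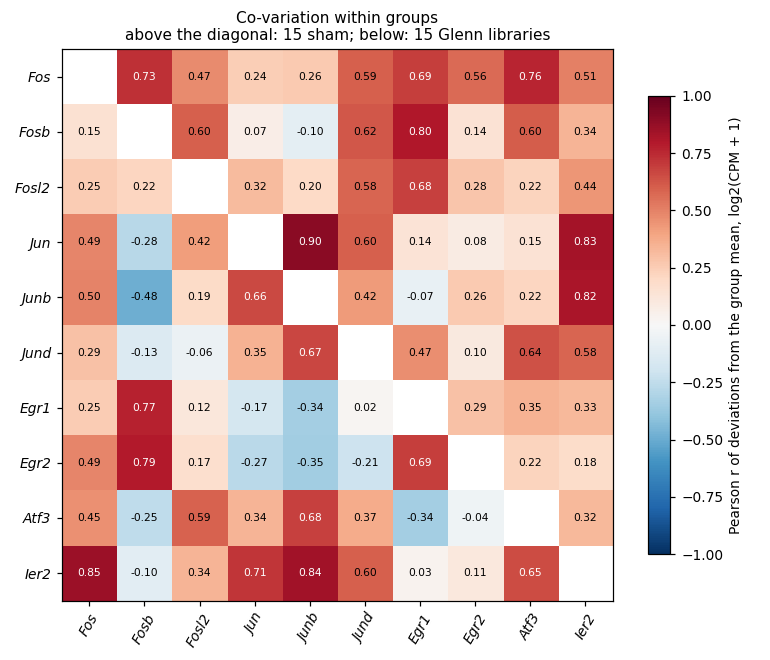
Pearson r between deviations from the group mean of log2(CPM + 1) for each pair of the 10 genes, above the diagonal over 15 sham libraries and below it over 15 Glenn libraries, from blue at −1 to red at 1. Jun, Junb and Ier2 form the darkest red cells above the diagonal (0.82 to 0.90), and Fos with Ier2 the darkest below it (0.85).

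Over all 30 libraries, with group means removed, 12718 genes were ranked by r with each member, as a description. Their mean reached 1 CPM, and rows with a placeholder symbol or an Ensembl ID for a name were left out. Series, RT1-CE16 status and sex were not removed here either. The closest genes were Rassf1 (r = 0.89), Mafk (row ENSRNOG00000065794, 0.82) and Ackr3 (0.78) for Atf3, and Exoc3l1 (0.79), Dusp5 (0.78) and Cactin (0.77) for Jun. Junb was closest to Ndufs7 (0.91), Eif6 (0.90) and Ssbp4 (0.90), and Ier2 to Twf2 (0.87), Junb (0.83) and Tmem259 (0.82). Adam33 (0.80), Il16 (0.79) and Chrd (0.78) were closest to Egr1, and Zfp185 (0.79), Ncdn (0.78) and Egr1 (0.77) to Fosb. For Egr2 the closest were Agap3 (0.79), Fgfrl1 (0.77) and Llgl2 (0.71), for Fosl2 Rnf19a (0.76), Csrnp1 (0.72) and Stab1 (0.72). Jund was closest to Cnot10 (0.73), Wdr46 (0.73) and Klf4 (0.68), and Fos to Plbd2 (0.72), Mcrip1 (0.70) and B9d2 (0.69). Junb and Ier2 had 202 and 65 genes at r of 0.7 or more, a level chosen after the values were seen, while Fos and Jund had 2 each.

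Related genes were read from 8 lists, whose counts of calls stand beside the 48.2% of all genes called in the same comparison and were not tested against it. Of 18 other immediate early transcription factors, 11 were higher and 4 lower (83.3% called) after Glenn surgery in the averaged comparison, with a median log2 change of 0.32. Myc, the growth factor responsive regulator, had a mean of 57.5 ± 8.83 CPM in sham and 120.0 ± 20.7 CPM in Glenn libraries (SD, n = 15), and rose by 1.10 on the log2 scale (SE 0.07, edgeR adjusted p = 6.86e-14). Bhlhe40, a basic helix-loop-helix repressor, rose by 1.11 and the nuclear receptor Nr4a2 by 0.97. Klf2, a factor of endothelium under laminar flow, went the other way, with 1125 to 2021 CPM in sham and 520 to 853 CPM in Glenn libraries, which did not overlap (log2 change −1.16, SE 0.08, edgeR adjusted p = 3.88e-13). Klf4, its close relative, fell by 0.72 and Klf10 by 0.43. The Egr family members outside the 10, Egr3 and Egr4, rose by 0.45 and 1.73 (edgeR adjusted p = 0.00442 and 1.22e-06).

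Of 26 other immediate early products, 15 were higher and 5 lower (76.9% called, median 0.18). Arc, an activity-regulated cytoskeletal protein, had 1.48 to 3.36 CPM in sham and 8.83 to 27.4 CPM in Glenn libraries (log2 change 2.78, SE 0.17, edgeR adjusted p = 1.39e-13). Trib1, a pseudokinase, rose by 1.41 and Thbs1, the matrix protein thrombospondin 1, by 1.23. Sgk1, a kinase of ion transport, Ier5 and Nfkbia, the inhibitor of NF-κB, fell by 0.68, 0.56 and 0.40. Among 15 rows of bZIP genes that can pair with Fos or Jun proteins, 6 were higher and 4 lower (66.7% called, median 0.12). The small Maf gene Maff, its large relative Maf and the AP-1 repressor Jdp2 rose by 0.41, 0.78 and 0.39, while Atf7, Ddit3 and Batf3 fell by 0.27, 0.37 and 0.87, with Batf3 under 1 CPM on average. In series A alone the same rows gave 6 higher and 1 lower.

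Of 28 upstream kinases and factors, 11 were higher and 8 lower (67.9% called, median 0.06). Map2k6, a kinase of p38, rose by 1.42, the cAMP responsive factor Crem by 0.90 and the ribosomal S6 kinase gene Rps6ka3 by 0.56, while the kinases Mapk12, Mapk9 and Map2k4 fell by 0.49, 0.23 and 0.23. Of 17 feedback inhibitors tested, 6 were higher and 8 lower (82.4% called, median −0.13). Spry1, an inhibitor of growth factor signalling, had 156 ± 14.3 CPM in sham and 416 ± 96.7 CPM in Glenn libraries (log2 change 1.42, edgeR adjusted p = 1.59e-13). The phosphatase Dusp2 and the Ras pathway inhibitor Spred3 rose by 1.86 and 1.26, while Dusp8, Dusp5 and Spred1 fell by 0.95, 0.39 and 0.30. The 8 lower calls of this list were 3 in the RT1-CE16-low libraries alone, an alternative chosen after the data were seen, and the 6 higher calls numbered 6 there too.

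Of 16 vessel genes known to respond to AP-1 or EGR1, 10 were higher and 1 lower (68.8% called), with a median of 0.67 beside −0.01 for all genes. Hbegf, a growth factor of the epidermal growth factor family, had 61.4 ± 9.12 CPM in sham and 123 ± 30.1 CPM in Glenn libraries (log2 change 1.03, edgeR adjusted p = 8.65e-10). The cytokine gene Il6 rose by 1.91 from a low level of 1.18 ± 0.497 CPM, and Pdgfa, a platelet-derived growth factor chain, rose by 0.68. The adhesion molecule gene Icam1 fell by 0.29.

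Heat shock genes and genes of the integrated stress response, which slows translation under stress, are also known to be induced by dissociation. All groups shared the sorting, so these lists cannot tell RNA induced in the animal from RNA induced while cells were prepared. No cause was tested. Of 13 heat shock genes 1 was higher (the chaperonin Hspd1, 0.16) and 2 lower (the co-chaperone Bag3, −0.50, and the regulator Hsf1, −0.16), with a median of 0.01, so 23.1% were called. Hspa1a, an inducible Hsp70 gene, ran from 481 to 3331 CPM in sham and from 500 to 2104 CPM in Glenn libraries, and its change did not pass (edgeR adjusted p = 0.425). Of 11 integrated stress response genes 2 were higher (Xbp1, 0.54, and Chac1, 0.75) and 3 lower (Asns, −0.87, Trib3, −0.44, and Ddit3, −0.37), with a median of −0.11, and the 45.5% called lie near the background.

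**Figure D5:**
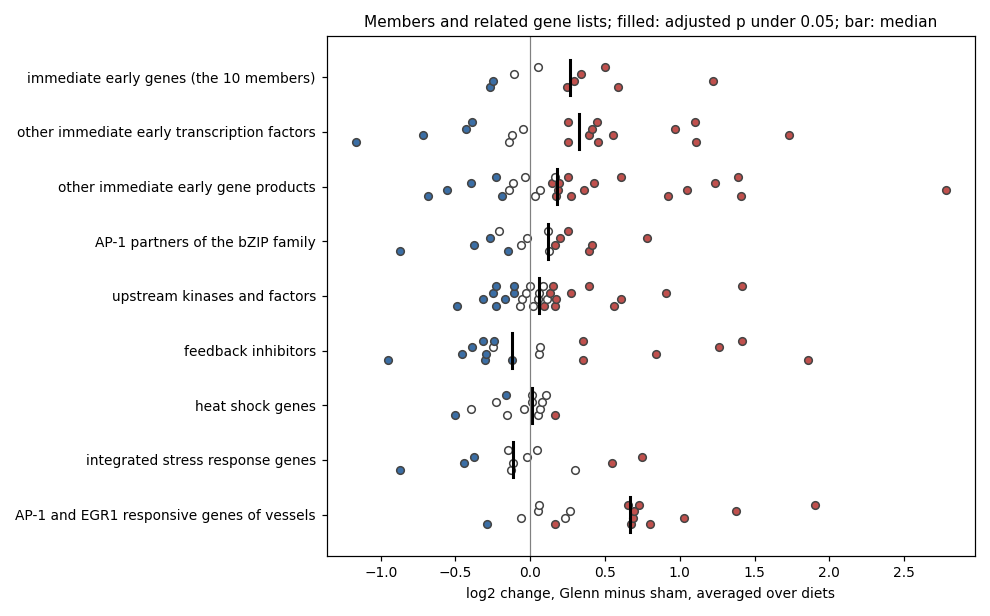
Log2 change, Glenn minus sham averaged over diets (horizontal axis), of each gene in the 10 members and 8 related lists; filled points have an edgeR adjusted p under 0.05 (red higher, blue lower) and bars are list medians. The list of vessel genes has the median farthest from 0, at 0.67, and the heat shock genes cluster near 0.

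Of the 138 list rows tested, diet called 4 after sham and 4 after Glenn surgery, all for excess minus control, which is 2.9% each beside 0.241% and 1.47% of all genes. Excess minus control after sham surgery gave Ppp1r15a at 0.48, Mafk at 0.43 (row ENSRNOG00000001277), Gadd45b at 0.58 and Btg1 at 0.29 (edgeR adjusted p = 0.0333, 0.0333, 0.0369 and 0.0425). The other row of Mafk, named above beside Atf3, did not pass. After Glenn surgery the same diets gave Nfkbia at 0.56, Dusp5 at 0.63, Ddit4 at 0.78 and Spred2 at −0.85 (edgeR adjusted p = 0.0298, 0.0242, 0.0277 and 0.0242). With a term for RT1-CE16 in place of the series all 8 kept their sign and none passed: the sham values were 0.43, 0.34, 0.42 and 0.26 in the order above (edgeR adjusted p between 0.24 and 0.356), and the Glenn values 0.37, 0.47, 0.55 and −0.70 (edgeR adjusted p between 0.0602 and 0.12). With no series term Ppp1r15a alone passed (edgeR adjusted p = 0.0401), and the Glenn values were 0.32, 0.45, 0.49 and −0.62. All 8 passed with DESeq2, with its size factors in edgeR and with limma voom, each with the series term. In series A alone Nfkbia, Dusp5 and Ddit4 passed, and with only the groups compared Mafk alone did. Every series B library was RT1-CE16-high, so the terms for series and RT1-CE16 overlap. Leaving out 1 library at a time, the calls were kept in 2 to 6 of 10 fits.

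Several of 10 marker lists for lung cell types moved with the operation, read beside the 48.2% of all genes called. All 7 endothelial markers were present in every library, and the mean log2(CPM + 1) of the list was 9.73 to 10.03 after sham and 9.40 to 9.89 after Glenn surgery, with 2 of 7 higher and 4 lower. Pecam1, which encodes CD31, had 971 to 1731 and 863 to 1404 CPM. All 8 mural cell markers were higher after Glenn surgery, and their summed level went from 161 to 328 CPM to 466 to 1687 CPM without overlap. Fibroblast markers were higher in 5 of 6 and type 2 epithelial markers lower in 6 of 6, with list means of 5.46 to 6.67 and 5.83 to 7.24 for fibroblasts and of 10.66 to 11.41 and 10.09 to 11.21 for type 2 cells. Type 1 epithelial markers were higher in 4 of 5 and lower in 1, and platelet markers lower in 5 of 5, with list means of 6.31 to 7.21 and 6.60 to 8.14 for type 1 cells and of 2.11 to 3.59 and 1.79 to 3.27 for platelets. Of 6 leukocyte markers tested 1 was higher and 2 lower. Ptprc, which encodes CD45, had a median of 3.18 CPM in sham and 2.05 CPM in Glenn libraries. Medians in the same order were 17.4 and 31.3 CPM for Csf1r and 19591 and 11848 CPM for Lyz2. They were 5.57 and 3.53 CPM for Cd68, 1.28 and 1.17 CPM for S100a9 and 1.11 and 1.07 CPM for Cd79a. Mesothelial markers gave 0 edgeR calls of 4 (0 at an unadjusted p under 0.05), with list means of 4.87 to 6.23 and 4.27 to 6.28, other epithelial markers 1 higher of 5 (6.46 to 7.41 and 6.45 to 7.71), and the 1 of 4 erythroid markers tested was higher (0.0 to 0.41 and 0.0 to 2.62). The part of these cells in the changes of the immediate early genes was not tested. In bulk RNA, fewer cells of a type and less RNA per cell cannot be told apart.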

How the data were processed

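RNA from CD31 microbead-sorted rat lung cells was sequenced in 30 libraries, made with the SMART-Seq Ultra Low v4 kit, per the labels' protocols. The values deposited by the authors are gene-level estimated counts, of which 13.6% were not whole, and library totals ran from 22.03 to 77.65 M counts. Per the submitters' processing notes, FastQC, Trim Galore, Picard, STAR and Salmon were used with the mRatBN7.2 (rn7) build, and versions, annotation release and strand setting were not given in the sources used here. Estimated counts were rounded, filtered with filterByExpr (minimum count 10, minimum total 15) and scaled by the trimmed mean of M values (factors 0.938 to 1.06). edgeR 4.0.16 (R 4.3.3) fitted 6 group means and a library series term with robust quasi-likelihood dispersions. Benjamini-Hochberg adjustment covered all 16171 genes tested, and calls were made under 0.05. Standard errors were the log2 change over the square root of F. Named were all 10 members, up to 3 genes per list and direction with the smallest adjusted p, any list gene called between diets, and the 3 genes most like each member. Egr3, Egr4 and Hspa1a were named after their values were seen. Series was the library number below 500 (A) or above (B), RT1-CE16 was called high above 100 CPM, and sex in 1 alternative was set by Ddx3y above 10 CPM. Alternatives were other model terms, series A alone, DESeq2 1.42.0 and its size factors, limma voom 3.58.1 with quality weights, no filter, only the groups compared, a replicate block and leaving out each library. Series B alone and RT1-CE16-low or RT1-CE16-high libraries alone were added after the data were seen. The model and the correlation test were tested on simulated data. Standing apart within 5 libraries was read from Dixon's ratio. Members and lists were chosen with earlier results of these data known. Promoter sequences are from RefSeq, and the Fos to Jun ratio used deposited counts.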

Additional observations from a re-analysis of the deposited data

Results flagged for a closer look

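In 60 sets of 5 libraries (10 genes in 6 groups), 1 library stood apart from the other 4 of its group by Dixon's ratio. For Ier2 the third Glenn library on deficient diet, at 1456 CPM, lay below the other 4, at 1670 to 1753 CPM, and the gap was 0.721 of the range, beside a critical value of 0.71. Chance alone flags about 3 of 60 sets.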

How the results depend on the processing

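The count of members called after Glenn surgery stayed within 1.5 times its main value in every setting that could be fitted: 8 for the averaged comparison, and 8 to 9 when each library was left out. Leaving out each library gave 4 to 6 under control diet and 4 to 5 under excess diet. Every diet comparison and the surgery by diet test stayed at 0. Of single values, Junb under deficient diet changed sign to 0.0024 in series B alone and ranged from −0.088 to 0.0069 when each library was left out. Atf3 under excess diet changed sign to −0.0047 with limma voom and ranged from −0.12 to 0.0998 when each library was left out. The cause was not tested. Without the 2 farthest libraries, 0 correlated pairs passed after sham and 1 after Glenn surgery. Same-numbered sham and Glenn libraries had residual correlations of −0.275 to 0.28, over 0.1 in 8 of 15 pairs and highest for the own number in 5 of 15, so the numbers were not taken to pair the libraries. With the replicate number as a replicate block, 8 members were called in the averaged comparison and 6, 4 and 6 under control, deficient and excess diet. Ier2 under control diet (−0.28, edgeR adjusted p = 0.0226) and Fosb and Egr1 under excess diet (0.63 and 0.33, edgeR adjusted p = 0.00313 and 0.0128) passed with the block, and the 4 list genes called between diets after Glenn surgery did not (edgeR adjusted p between 0.0717 and 0.152). RT1-CE16-high libraries alone could not be fitted, and series B alone gave the deficient diet comparison and excess minus deficient after Glenn surgery. The lowest count of any member in a library was 835, for Fosl2, and no fit at lower depth was run.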
